A study of Chlorella sorokiniana and Chromochloris zofingiensis with 12 samples.

Results

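Entries of the plant miRNA families miR156, miR171 and miR396 were followed in small RNA libraries of 2 green algae, Chlorella sorokiniana strain NIES-2168 and Chlorella zofingiensis strain ATCC30412. An entry here is a named Arabidopsis thaliana miRNA, either the precursor hairpin (written mir) or the mature miRNA cut from it (written miR), to which the omiRas annotation tool assigned algal reads. Members were all miRNA entries that bear the number of one of the 3 families, with any letter. They came to 15 of the 893 entries listed in at least 1 library and of the 154 miRNA entries, with 11 precursors and 4 mature miRNAs. C. sorokiniana had 7 members among 633 entries and C. zofingiensis had 10 among 792, and ath-mir-156b and ath-mir-396b were listed in both.

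Each species was grown in normal and stress cultures, with 3 libraries per group and 12 in all. Normal cultures were kept in Bold's Basal Medium at 27 °C in constant light of about 10 µmol photons, shaken at 30 rpm. Stress began in mid log phase, when the light was raised to 100 µmol photons and 2% glucose was added, so light and glucose changed together and cannot be told apart. The labels name no further treatment and no mutation in either species. The labels number the replicates but do not say that they were separate cultures, so every p-value measures the spread between these libraries only.

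In land plants, miRNAs are cut from hairpin precursors and pair with mRNAs to have them cleaved or kept from translation. There, miR156 targets SPL transcription factors and holds the plant in its juvenile phase. In the same plants miR171 targets GRAS transcription factors of the scarecrow-like group, which act in shoot branching and meristems, and miR396 targets growth-regulating factors, which promote cell proliferation in leaves. These roles are known from land plants such as Arabidopsis, not from Chlorella.

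The families were unevenly found. miR156 gave 11 members, ath-miR-156c, ath-miR-156e, ath-miR-156f and the precursors with the letters b to i. miR171 gave 2, ath-miR-171a and its precursor, both in C. zofingiensis, and no miR171 entry was listed in any C. sorokiniana library. miR396 gave 2 precursor entries, with the letters a and b, and neither species listed a mature miR396. No SPL, GRAS or growth-regulating factor mRNA was measured.

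The reads behind each entry are shown first. For each entry and library the deposited sheets give the commonest tag, that is the most frequent read sequence, and the number of Arabidopsis loci to which it maps. The 15 members had 14 distinct commonest tags, of 11 to 19 bases with a median of 14. Mature plant miRNAs are typically longer than every one of them. The miR396 and miR171 tags, and the miR156 tags whose letters are given, are written 5′ to 3′ in DNA letters with the last base in capitals, since every one of the 14 tags ended in A.
ath-mir-396a and ath-mir-396b, C. sorokiniana: aagctgtgggaA
ath-mir-396b, C. zofingiensis: gaaagctgtgcgaA
ath-miR-171a and ath-mir-171a, C. zofingiensis: agccgcgccaA
ath-miR-156e and ath-mir-156e, C. sorokiniana: ttaggaggtgA
ath-mir-156h, C. sorokiniana: ccttgtcgggA
ath-mir-156d, C. sorokiniana: gggaagttgtA
ath-mir-156b, C. sorokiniana: tgaattagctgctA
ath-mir-156b, C. zofingiensis normal replicate 2: tgaggaatgcaA
ath-mir-156b, C. zofingiensis stress replicate 3: gcctgggcgtgctcA
ath-miR-156c and ath-mir-156c, C. zofingiensis: tagacactgacagaA
ath-mir-156g, C. zofingiensis: gctcatgcacgaaagA
ath-mir-156i, C. zofingiensis: gctctttcttgattctgaA

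These tags were short and mapped to many places. Each of the 14 mapped to 11 to 48 Arabidopsis loci, with a median of 23, and 6 of them had 12 bases or fewer. The other miRNA entries were alike in both respects, with a median length of 14 bases and a median of 24 loci over their distinct tags. No commonest tag of any miRNA entry, members included, reached 20 bases, against 12.9% of tRNA tags. In the second deposited table, which lists the 100 commonest sequences of each library, 49.7% of 292 tags had 20 bases or more. That table holds no tag under 16 bases, so its lengths are not directly comparable with those of the entries. A final A was general as well: it closed 97.2% of the 713 distinct commonest tags of all entries and 292 of 292 tags of the second table. Tags given the same miR156 number but not the same letter had little sequence in common: the longest run that any miR156 tag printed here shares with another was 5 letters.

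**Figure D1:**
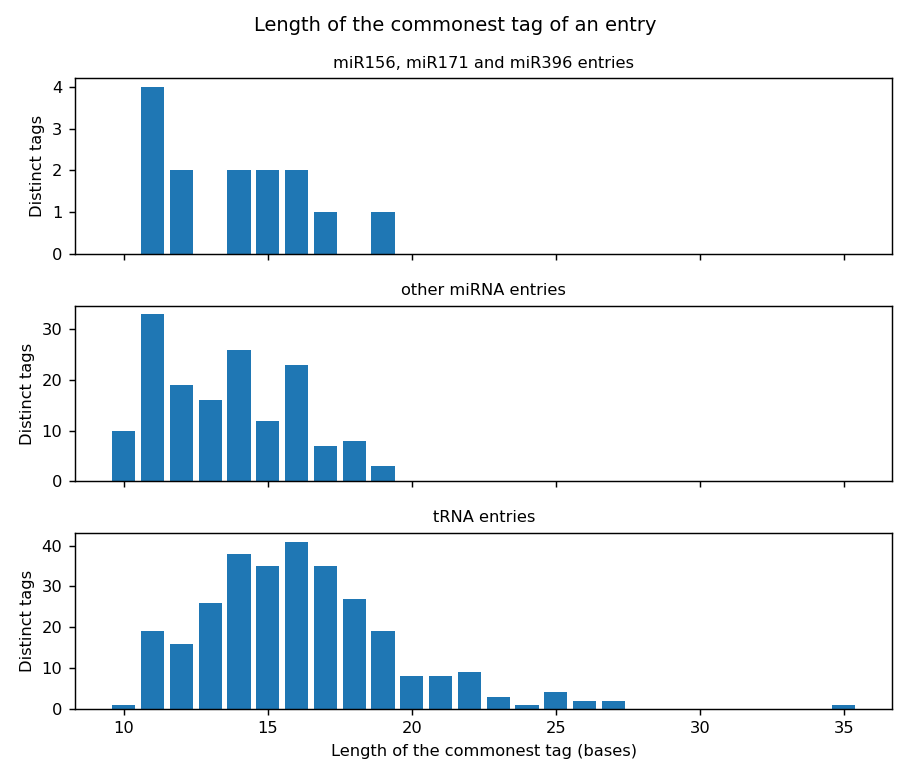
Number of distinct commonest tags (vertical axis) by length in bases (horizontal axis) for entries of the 3 families, other miRNA entries and tRNA entries, both species together. The 14 tags of the 3 families span 11 to 19 bases, no miRNA tag reaches 20, and the tRNA tags extend to 35.

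Read numbers were low. The members' rows were listed 41 times out of 102 possible, 10 of these listings rested on 2 reads and 23 on fewer than 10. The smallest count listed for any entry was 2, so an entry absent from a sheet may have had 0 or 1 read. Such entries are called not listed and taken as 0 in the tests. A read that maps to several entries counts at each of them, and annotated counts summed to 2718 to 26102 per C. sorokiniana library and 14601 to 280404 per C. zofingiensis library. In C. sorokiniana the smallest sum, 2718, belonged to normal replicate 3, and the sums of the stress libraries, 20686 to 26102, all lay above those of the normal libraries. The part of this difference in depth in what was listed in stress alone was not tested.

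**Figure D2:**
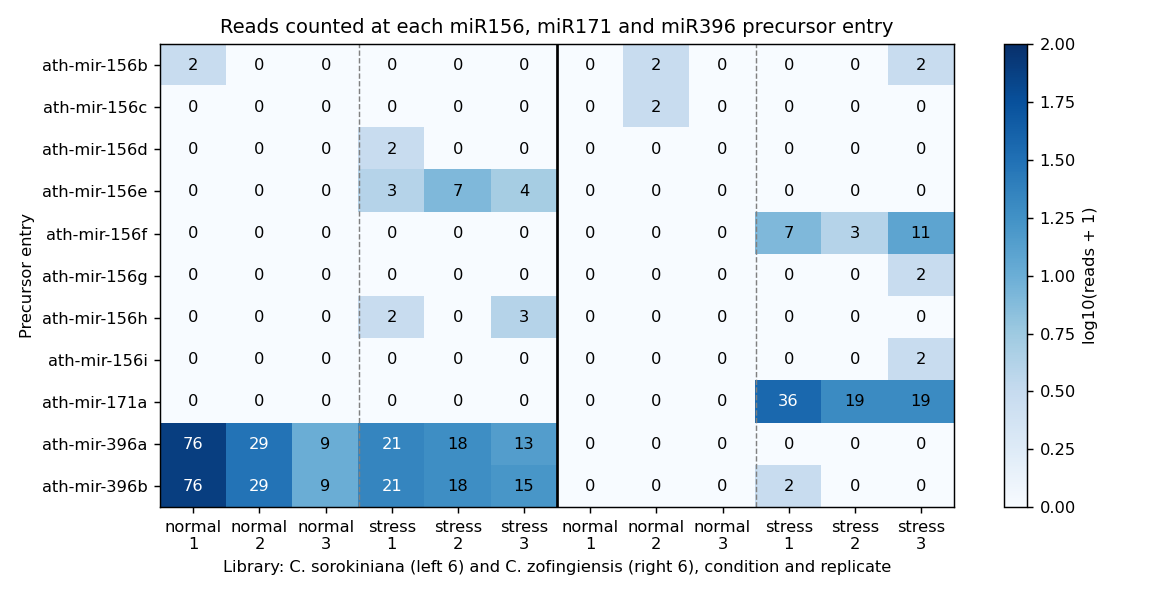
Reads counted at the 11 precursor entries (rows) in the 12 libraries (columns), with shading on a log10(reads + 1) scale and the count in each cell; 0 stands for an entry that was not listed. The miR396 precursors have counts in all 6 C. sorokiniana libraries, while ath-mir-171a and ath-mir-156f have counts in the 3 C. zofingiensis stress libraries alone.

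miR396 was the family with the most reads, and its precursors took a smaller share of the annotated counts in stressed C. sorokiniana. ath-mir-396a had 76, 29 and 9 reads in normal replicates 1, 2 and 3, and 21, 18 and 13 in stress replicates 1, 2 and 3. Scaled to reads per 1000000 annotated counts of the library, written CPM here, these were 3916, 2012 and 3311 CPM under normal conditions and 1000, 690 and 628 CPM under stress. Every normal library lay above every stress library. The means were 3080 ± 973 (SD, n = 3) and 773 ± 199 (SD, n = 3) CPM, which is 3.99 times as much in normal libraries. An exact two-sided permutation test gave p = 0.1, the smallest that 3 libraries against 3 allow, and 0.212 after Benjamini-Hochberg adjustment over 17 member entries. Over all 633 C. sorokiniana entries, 30 (4.74%) had shares that lay lower in every stress library than in any normal library. Only an entry listed in all 3 normal libraries can show this, and normal replicate 3 listed 113 entries. Among entries able to show it, the pattern was therefore much more common than 4.74%.

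The fit over all entries gave the same direction. In edgeR's quasi-likelihood test ath-mir-396a fell by 2.25 on the log2 scale (SE 0.59, Benjamini-Hochberg adjusted p = 0.000917) and ath-mir-396b fell by 2.19 (SE 0.59, adjusted p = 0.00115). Of the 7 C. sorokiniana members, these 2 passed the filter on low counts. Of all entries tested, 33.1% were called, 37 lower (22.3%) and 18 higher (10.8%), and the median of all entries tested was 0.19. Among the 12 miRNA entries tested, 9 were called lower and 1 higher, with a median of -1.51, so a fall was the usual call there. These entries are not independent: some are precursor and mature rows of the same miRNA, and the 2 miR396 precursors share most reads. The split of calls turned with the scaling: with library sizes taken from the table of the 100 commonest sequences, all of the 93 calls were higher, and with entries of identical counts entered once 40 were called higher and 1 lower.

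ath-mir-396a stayed below the median entry under every scaling tried, but its own call did not hold throughout. Its log2 change was -0.78 with library sizes from the table of the 100 commonest sequences (edgeR adjusted p = 0.215) and -1.002 with identical entries entered once (adjusted p = 0.0505), while the median of all entries moved from 0.19 to 1.55 and 1.41. Relative to that median, ath-mir-396a was at -2.43 in the reported fit, -2.33 with the first of these scalings and -2.41 with the second. A change of library sizes moves all entries by nearly the same amount. The distance to the median could therefore hardly change with the scaling, and its steadiness is no test of the fall. Over the reported fit and 15 alternatives its distance to the median ranged from -3.15 to -2.12, and that of ath-mir-396b from -3.09 to -2.06. The call also rested on single libraries: leaving out 1 of the 6 at a time gave log2 changes from -2.17 to -1.63, and the edgeR adjusted p was below 0.05 when normal replicate 3 was left out and above it for each of the other 5, at 0.0576, 0.0715, 0.124, 0.210 and 0.616 without normal 1, normal 2, stress 1, stress 2 and stress 3.

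**Figure D3:**
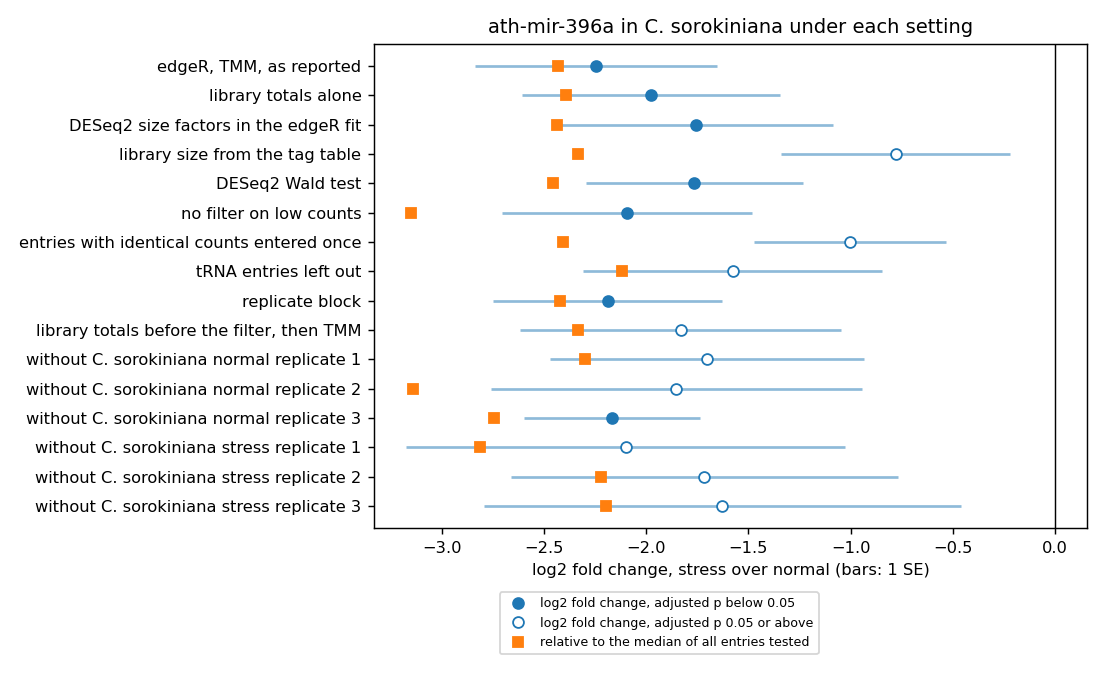
Log2 fold change of ath-mir-396a, stress over normal, in C. sorokiniana (horizontal axis, with bars of 1 SE) under each processing setting (vertical axis), with filled circles for an adjusted p below 0.05 and squares for the distance to the median of all entries tested. All values lie below 0; the circles range from -2.25 to -0.78 and the squares from -3.15 to -2.12.

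The counts of ath-mir-396b equalled those of ath-mir-396a in 5 of the 6 libraries and differed in stress replicate 3, with 15 reads against 13. In every one of these libraries the commonest tag of both was the 12-base sequence shown above, which maps to 26 loci. It made up 68, 21 and 9 of the normal reads and 18, 11 and 13 of the stress reads. The 2 further reads of ath-mir-396b in stress replicate 3 mapped to 2 loci, the fewest of any miR396 reads. Between 61.1 and 100% of the ath-mir-396a reads of a library were thus this 1 short tag.

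Within the miRNA precursors alone, miR396 was also a smaller part in stress. The 2 miR396 precursors together took 12.9, 9.11 and 8.26% of precursor counts in normal libraries and 4.35, 3.80 and 3.21% in stress libraries. The groups did not overlap, with means of 10.1 ± 2.47% and 3.79 ± 0.57% (SD, n = 3 each; exact permutation p = 0.1, the smallest possible; 0.167 adjusted over 5 family shares). The counts of both entries were added, so reads of the tag they share enter this sum at each of them. How many other precursors or families separate the groups likewise was not counted. By count, ath-mir-396a had rank 4 among the precursors in each normal library and rank 7, 6 and 8 in the stress libraries.

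**Figure D4:**
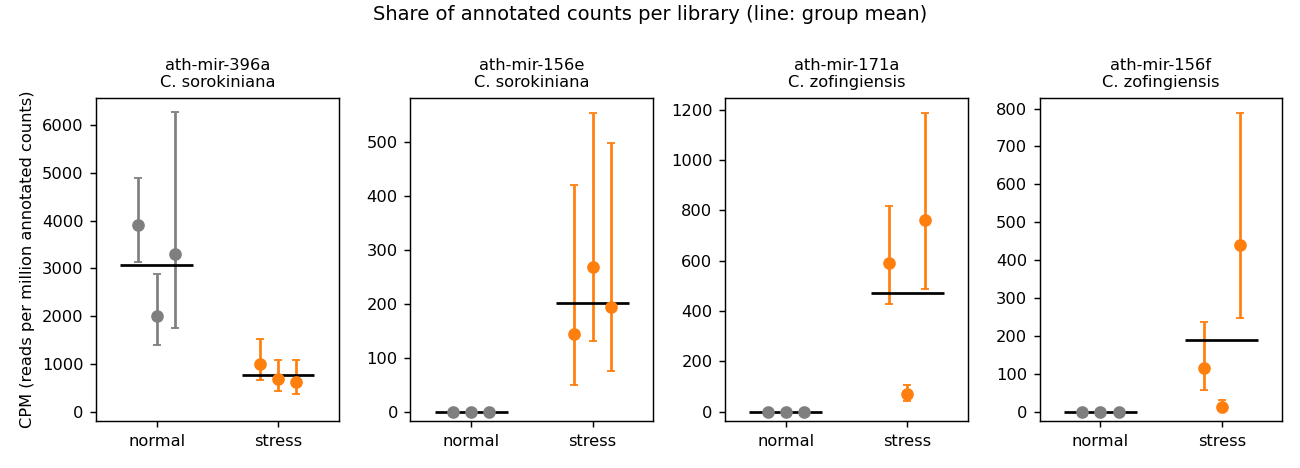
Reads per 1000000 annotated counts (CPM) in each library (points, with 95% Wilson intervals that cover counting error only and are drawn where the entry was listed) and the group mean (line) for 4 precursors. In C. sorokiniana the ath-mir-396a values run from 2012 to 3916 in normal and from 628 to 1000 in stress libraries; the other 3 precursors are listed in stress libraries alone, ath-mir-171a between 67.8 and 761.

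The tag behind the miR396 entries was next compared with the commonest sequences of the libraries, in letters chosen after the data had been seen. The whole 12-base tag is contained in none of the 292 listed sequences. Without its last base, its 11 letters occur in 8 of them, all from C. sorokiniana, and the commonest tag of no other member did so, with or without its last base. The 8 sequences form a ladder: they share their 3′ end and begin at successive bases, from 16 to 23 bases in length. The shortest and the longest of them follow, with the 11 letters in capitals.
Ladder sequence of 16 bases: AAGCTGTGGGAtatta
Ladder sequence of 23 bases: tctgccgAAGCTGTGGGAtatta

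The table of commonest sequences held far more reads of this ladder than the sheets held of miR396. The 16-base sequence begins with the same 11 letters as the miR396 tag and had 15503, 6706 and 1078 normal reads and 3980, 2630 and 2973 stress reads. Its share of the listed reads was 3.42 ± 0.96% in normal and 2.00 ± 0.32% in stress libraries (SD, n = 3 each), and the groups did not overlap, with an exact permutation p of 0.1, the smallest possible. The 23-base sequence had 6881, 2600 and 415 normal reads and 2549, 1632 and 1366 stress reads. The ladder did not move as one. The 18-base sequence was higher under stress without overlap, with shares of 0.423, 0.399 and 0.422% against 0.228, 0.207 and 0.142% normally. The 17-base sequence was higher too, at 0.279, 0.266 and 0.292% against 0.198, 0.163 and 0%, where 0 means not listed. For the remaining sequences, the 23-base one included, the groups overlapped. Among the listed sequences outside the ladder, how many separate the groups likewise was not counted. Taken over all 8 sequences, the share was 6.19 ± 1.98% and 4.92 ± 0.61%, with groups that overlapped (exact permutation p = 0.4).

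For each 1000 reads of the 16-base sequence there were 4.39, 3.13 and 8.35 reads of the miR396 tag in normal libraries and 4.52, 4.18 and 4.37 in stress libraries. The stress values lay within the range of the normal values, with means of 5.29 ± 2.72 and 4.36 ± 0.17 (SD, n = 3 each; exact permutation p = 0.8). The highest value, 8.35, was that of normal replicate 3, which had 9 reads of the tag, and without it the normal mean was 3.76, below the stress mean. Per 1000 reads of all 8 ladder sequences there were 2.20, 1.83 and 4.93 reads of the tag in the normal and 1.71, 1.61 and 2.00 in the stress libraries, with groups that overlapped. These means were 2.99 ± 1.69 and 1.78 ± 0.20 (SD, n = 3 each; exact permutation p = 0.2), and without normal replicate 3 the normal mean was 2.02. Neither ratio differed beyond the spread between libraries, and with 3 libraries per group a difference in either may have gone undetected. Whether both come from 1 algal transcript was not tested, since no Chlorella genome was used here.

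**Figure D5:**
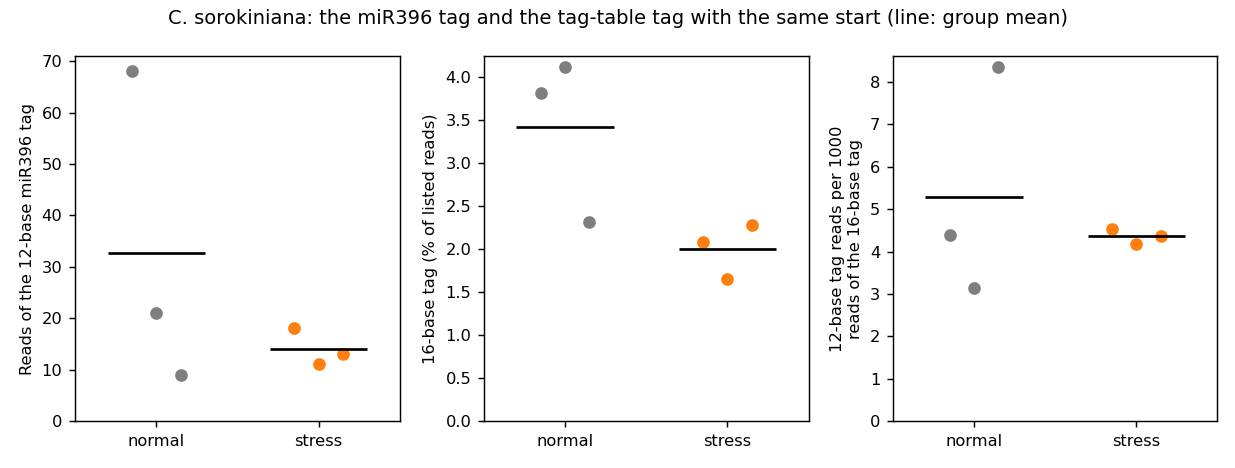
The 6 C. sorokiniana libraries by condition (points, with the group mean as a line): reads of the 12-base miR396 tag, the 16-base sequence as a percentage of listed reads, and tag reads per 1000 reads of that sequence. The middle panel separates the groups, while the right panel has stress values of 4.18 to 4.52 inside the normal range of 3.13 to 8.35.

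In C. zofingiensis miR396 was close to the listing limit. ath-mir-396b had 2 reads in stress replicate 1 and was not listed in the other 5 libraries, and ath-mir-396a was not listed at all. The 2 species did not share the tag, as the following alignment shows, with the base that differs in capitals.
ath-mir-396b tag, C. sorokiniana: aagctgtgGgaa
ath-mir-396b tag, C. zofingiensis: gaaagctgtgCgaa
The C. zofingiensis tag has 14 bases and maps to 18 loci, and over the 12 bases in common it differs by 1 substitution, G9C, counted from 1 at the 5′ end of the 12-base tag. None of the 8 ladder sequences was listed in C. zofingiensis. The stress response of ath-mir-396b was not shown to differ between the species: the interaction was 4.20 on the log2 scale (SE 1.65, edgeR adjusted p = 0.0763), with 25.2% of 262 entries called. That value rests on 2 reads in C. zofingiensis.

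miR171 was listed only in stressed C. zofingiensis among the 4 groups. ath-miR-171a and its precursor had identical counts, 36, 19 and 19 reads in stress replicates 1, 2 and 3, and were not listed in any normal library. No fold change is given, because a library that does not list an entry may hold 1 read of it. Of all C. zofingiensis entries, 8.84% were likewise listed in all 3 stress libraries and in no normal library. Annotated counts were 14601, 106200 and 51706 in the normal libraries and 60856, 280404 and 24978 in the stress libraries, and the part of depth in this pattern was not tested.

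The share of annotated counts taken by miR171 varied more between the stress libraries than its read number did. ath-mir-171a had 592, 67.8 and 761 CPM in stress replicates 1, 2 and 3, a mean of 473 ± 361 (SD, n = 3), and the low value came from stress replicate 2, whose annotated counts of 280404 were the highest of all libraries. Within the miRNA precursors its share was 5.35, 5.43 and 5.49% in these 3 libraries, a mean of 5.42 ± 0.07%, and it had rank 5, 4 and 5 by count. The stress shares of annotated counts and of precursor counts each gave an exact permutation p of 0.1 against normal, the smallest possible. After Benjamini-Hochberg adjustment they stood at 0.2125 over 17 member entries and 0.167 over 5 family shares. Both p-values follow from the listing in all 3 stress libraries and in no normal library, so they add nothing to it.

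The miR171 tag shown above has 11 bases and maps to 11 loci. It accounted for 21, 9 and 13 of the 36, 19 and 19 reads. Neither miR171 entry passed the filter on low counts in the reported fit, which called 35.1% of 248 C. zofingiensis entries, so that fit holds no value for them. No test without that filter is given, since it would set their stress counts against normal libraries that list none of them.

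The miR156 entries were listed mostly in stress libraries, each with few reads. Mature and precursor entries of the same letter shared their tags, and entries of different letters shared none. Of entries of all kinds, C. sorokiniana stress libraries listed 417 to 507 and normal libraries 113 to 355. For C. zofingiensis these numbers were 533 to 626 and 369 to 578. ath-miR-156e and its precursor shared their counts and had 3, 7 and 4 reads in C. sorokiniana stress replicates 1, 2 and 3 and none listed in normal libraries. This was 143, 268 and 193 CPM, a mean of 201 ± 63.1 (SD, n = 3; exact permutation p = 0.1, the smallest possible). That p follows from the listing in all 3 stress libraries and in no normal library. In C. sorokiniana 18.2% of all entries were listed in the 3 stress libraries and in no normal library, so this pattern was common there. Its 11-base tag maps to 48 loci, where no commonest tag of any entry maps to more than 49.

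ath-miR-156f and its precursor had 7, 3 and 11 reads in C. zofingiensis stress replicates 1, 2 and 3, and were not listed in normal libraries. This came to 115, 10.7 and 440 CPM, a mean of 189 ± 224 (SD, n = 3), and the lowest value was again that of the deepest library, stress replicate 2. Its commonest tag had 17 bases and 13 loci in stress replicates 1 and 3, and 16 bases and 35 loci in stress replicate 2. Whether these reads are algal was not tested, and their letters are not given.

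The remaining miR156 entries never passed 3 reads in a library. In C. sorokiniana ath-mir-156h had 2 reads in stress replicate 1 and 3 in stress replicate 3, ath-mir-156d had 2 in stress replicate 1, and ath-mir-156b had 2 in normal replicate 1. In C. zofingiensis ath-mir-156b had 2 reads in normal replicate 2 and 2 in stress replicate 3, and the reads bore different tags. ath-miR-156c and its precursor had 2 reads in normal replicate 2, and ath-mir-156g and ath-mir-156i each had 2 in stress replicate 3. At these counts no difference between groups was detectable. Summed over precursors, miR156 took 0.057 ± 0.098% of normal and 0.756 ± 0.042% of stress precursor counts for C. sorokiniana, without overlap (exact permutation p = 0.1). In C. zofingiensis it took 0.303 ± 0.525% and 2.27 ± 2.29%, and the groups overlapped (exact permutation p = 0.2). Spreads are SD with n = 3 each. How many other families separate the groups likewise was not counted.

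Other miRNA families with roles in land plant development were no better covered. A list of 13 such numbers, among them miR160 and miR167, which target auxin response factors, miR165 and miR166, which target HD-ZIP III factors, and miR319, which targets TCP factors, gave 16 entries, 7 of them C. sorokiniana entries and 14 C. zofingiensis entries. The highest count in any library was 12, and none of the entries passed the filter on low counts. Without the filter none was called by edgeR within either species (2 of 7 had an unadjusted p below 0.05 in C. sorokiniana and 0 of 14 in C. zofingiensis). For the species difference, the unfiltered edgeR fit tested 5 of them and called ath-mir-165b and ath-mir-167a, where 21.1% of all 532 entries were called. The C. sorokiniana normal libraries did not list ath-mir-165b, against 6, 6 and 2 stress reads. Likewise the C. zofingiensis normal libraries did not list ath-mir-167a, against 4, 0 and 2 stress reads. Both calls thus set stress reads against normal libraries without the entry, and no species difference is read from them. ath-mir-160c was listed in both, with 5, 0 and 0 normal reads and 7, 12 and 7 stress reads in C. sorokiniana, and with 8, 5 and 3 normal reads and 10, 5 and 6 stress reads for C. zofingiensis. For ath-mir-167a, C. sorokiniana had 8, 7 and 5 normal reads and 4, 7 and 0 stress reads. Against highest counts of 12 and 10 in the 2 species stand 76 for ath-mir-396a and 36 for ath-mir-171a, in reads with no correction for length.

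The entries whose pattern was most like ath-mir-396a over the 6 C. sorokiniana libraries were ath-mir-399b and its mature miRNA, with equal counts of 29, 13 and 6 in normal and 14, 9 and 8 in stress libraries. In land plants miR399 acts in the response to phosphate supply. Pearson's r of the log2 CPM was 0.956, as a description over 6 libraries that share their depth and their composition. Next was a small nucleolar RNA of the snoZ103 family with r = 0.941, with 185, 96 and 28 normal and 101, 53 and 68 stress reads. The same 3 entries were nearest to ath-mir-396b.

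The authors' deposited table of their own comparison did not call any member. At an FDR below 0.05 it called 13 of 218 rows for C. sorokiniana and 0 of 337 for C. zofingiensis. The lack of a call in C. zofingiensis is thus not particular to the members. It gave ath-mir-396a a normalized group mean of 0.409 for normal and 0 for stress, the order in the table's title, with p = 0.804, and ath-mir-396b 0.409 and 0.405, with p = 0.956 (FDR 1 for both, by the authors' own test). For both miR171 entries the authors' deposited table listed means of 0 and 1.39 and an FDR of 0.627. How those means were made was not tested. The sheets also list counts divided by the number of mapping loci, and on that scale ath-mir-396a had 2.79, 0.982 and 0.346 in normal and 0.758, 0.575 and 0.5 under stress, and ath-mir-171a had 2.74, 1.41 and 1.52 in stress. The whole-number parts of these values are 2, 0 and 0 against 0, 0 and 0 for ath-mir-396a and 2, 1 and 1 for ath-mir-171a. Divided by loci, neither family reached 3 in any library.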

How the data were processed

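Small RNA of 12 libraries was sequenced. Per the labels' protocols, TRIzol was used to extract total RNA and the libraries were made with the NEBNext small RNA kit. The submitters' processing notes name DESeq, with no version, and the Arabidopsis build TAIR9; the aligner is not given in the sources used for this work.

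The authors deposited, per library, read counts of Arabidopsis entries (miRNAs, tRNAs, rRNAs and snoRNAs), per the file headers, and beside them a signal that equals the counts divided by mapping loci in 2069 of 2069 rows with a single tag, within 0.001. Multiply mapping reads count at each entry, so entries share reads. The tag table holds the authors' counts of exactly 100 sequences per library, so its sums of 46518 to 500007 are not depths. The deposited comparison tables give the authors' p-values and normalized group means as a signal, per the file headers.

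Counts were tested per species with edgeR 4.0.16 (R 4.3.3): filterByExpr, TMM on the filtered counts, robust quasi-likelihood fit, two-sided, condition as the only term, Benjamini-Hochberg adjustment over all entries and a threshold of 0.05. The species difference was an interaction over the 4 groups on entries listed in both species. Self-tests on simulated data were run. Shares were compared with exact two-sided permutation tests (scipy 1.17.1), and intervals are 95% Wilson intervals that cover counting error only. For C. sorokiniana, libraries of the same replicate number deviated together, with correlations of 0.248, 0.334 and 0.129, while unmatched numbers reached at most 0.044. The matched correlations of C. zofingiensis were 0.742, 0.729 and 0.102. Its replicate 3 was not the closest match: normal 1 with stress 3 gave 0.237, and normal 3 with stress 2 gave 0.190. Numbers were treated as pairs in a blocked alternative, with the pairing taken from the labels' replicate numbers. DESeq2 1.42.0 served as another alternative, as did other scalings, no filter, and leaving out each library.

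All members were named, with other development miRNAs from a list of 13 numbers, and the 3 entries most correlated with a member listed in at least 4 of 6 libraries. The members and lists were chosen with earlier results of these data known. The letters of the miR156f tags, and miRNA sequences from a reference, are not used here. Scripts ran under Python 3.11.15 with matplotlib 3.10.9, numpy 2.4.6 and pandas 2.3.3.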

Additional observations from a re-analysis of the deposited data

How the results depend on the processing

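The fall of ath-mir-396a and ath-mir-396b in C. sorokiniana kept its direction in all 9 alternatives and 6 leave-one-out fits each. The edgeR call was lost in 4 alternatives. These were library sizes from the table of the 100 commonest sequences (-0.78 and -0.72, adjusted p = 0.215 and 0.267), identical entries entered once (-1.002 and -0.94, adjusted p = 0.0505 and 0.0682), tRNA entries left out (-1.58 and -1.52, adjusted p = 0.0749 and 0.0810), and library totals taken before the filter and then TMM, chosen after seeing the data (-1.83 and -1.77, adjusted p = 0.0694 and 0.0817). Without 1 library at a time, the values ran from -2.17 to -1.63 and from -2.11 to -1.63, and the call was lost in 5 of 6 fits. The cause was not tested. DESeq2's Wald test called both (adjusted p = 0.0111 and 0.0123). Under the replicate block they stood at -2.19 and -2.14 (adjusted p = 0.000778 and 0.000984), and the block changed the call of no member.

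Counts of called entries moved more. In C. sorokiniana, 55 became 36 with DESeq2 size factors, 93 with library sizes from the tag table, 125 without the filter, 19 without tRNA entries and 8 to 138 with 1 library left out. In C. zofingiensis, 87 became 35 with library totals alone, 140 without the filter, 37 with identical entries once, 28 without tRNA entries, 132 under the replicate block and 88 to 193 with 1 library left out. For the species difference, 66 became 15 with size factors, 112 without the filter, 16 with identical entries once, 8 without tRNA entries and 53 to 131 with 1 library left out. The interaction of ath-mir-396b passed the threshold in none of 9 alternatives (adjusted p from 0.0636 to 0.348) or 11 leave-one-out fits (2.97 to 4.25, adjusted p from 0.1004 to 0.252), and it could not be fitted without C. zofingiensis stress replicate 1. With 3 libraries per group, few reads per entry and a listing minimum of 2 reads, members other than the miR396 precursors could be described but hardly tested.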
